A study of Mus musculus with 6 samples.

Results

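The genes described here encode the JAK kinases and the STAT transcription factors of T cells: Jak1, Jak2, Jak3, Tyk2, Stat3, Stat4, Stat5a, Stat5b and Stat6. A gene was taken where an array row names it and no other gene. By that rule 8 of the 9 listed genes were found, 3 JAK genes and 5 STAT genes, each with 1 row, among 30702 genes tested. The row of Jak3 names several genes, and Jak3 is not analysed here.

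The samples were mouse TH17 cells, helper T cells driven toward IL-17 secretion in culture. Naive CD4+ T cells, sorted as CD25-, CD62L+ and CD44-, were stimulated with antibodies against CD3 and CD28 for 3 days in IMDM. The medium held 10% FBS, TGFb at 1.25 ng/ml, IL-6 and IL-23 each at 20 ng/ml, and blocking antibodies to IFNg, IL-4 and IL-12 at 10 ug/ml. In 3 cultures the medium held no glutamine, and 3 control cultures held it, all else being as described for both groups. No strain, age or number of mice is given, and the labels call the arrays biological replicates without tying them to separate mice. A p-value here therefore measures only the variation among these 6 arrays. Each array read a whole culture in bulk, in which fewer cells of a type and less RNA per cell cannot be told apart.

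Cytokine receptors of this class have no enzyme of their own and hold JAK kinases on their tails. When a cytokine joins the receptor chains, the JAKs phosphorylate them, STAT proteins dock there, are phosphorylated in turn, pair up and enter the nucleus to switch on target genes. In T cells STAT3 carries the signals of IL-6, IL-21 and IL-23 and is required for TH17 cells, STAT4 carries those of IL-12 and in part IL-23, STAT6 those of IL-4 and IL-13, and STAT5A and STAT5B those of IL-2 and IL-7. The arrays measured transcripts and say nothing of phosphorylation.

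All 5 of these STAT genes were lower without glutamine, and none of the 3 JAK genes passed the test. Stat4 had the largest difference of the 8, at -3.07 log2, and the other 4 STAT genes lay between -0.62 and -0.32 log2. The test was limma on the deposited log2 values, with Benjamini-Hochberg adjustment over all 30702 genes and a threshold of 0.05, and each difference is signed as without glutamine minus with glutamine. By the same rule 22.3% of all genes were called, 13.0% lower and 9.30% higher. Those shares include dim genes, while all 8 members stood above the median level of the genes. Among the 15351 genes above that level, fitted on their own, 6513 were called, with a median difference of -0.059. In that fit too, 5 STAT genes were called lower. The median difference was -0.54 over the 5 STAT genes, 0.17 over the 3 JAK genes and 0.060 over all genes. The 2 groups did not overlap in 6 of the 8 genes, as in 43.8% of all genes, and in 5 of the 8 the arrays without glutamine all lay lower, as in 18.8% of all genes.

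Array medians over all rows lay between 4.33 and 4.38 log2 without glutamine and between 4.18 and 4.21 log2 with it. On each array 695 to 887 rows stood above 16 log2, the top of a 16-bit scanner, so the deposited scale may have been stretched and differences are not turned into folds. After quantile normalization the median over all genes was -0.048, and after centring each array on its median it was -0.095. Under both scalings the same 5 STAT genes were called lower and no JAK gene was called, while quantile normalization called 21.8% of all genes (17.1% lower, 4.73% higher) and centring called 23.9% (20.0% lower, 3.96% higher).

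**Figure D1:**
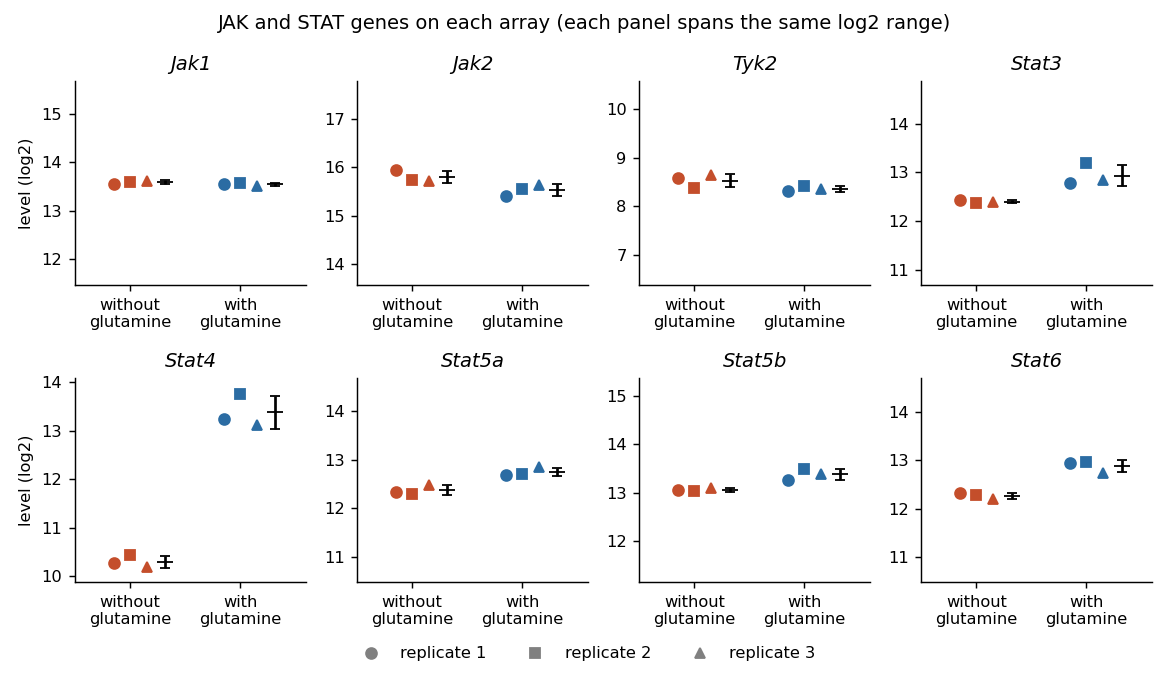
Log2 level of each of the 8 genes on each of the 6 arrays, with the 3 arrays without glutamine left of the 3 with it, and beside each group its mean and SD. The Stat4 points lie between 10.20 and 10.44 without glutamine and between 13.12 and 13.76 with it, while the Jak1 points of both groups lie between 13.52 and 13.62.

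Stat4, the factor through which IL-12 drives TH1 cells, read 10.27, 10.44 and 10.20 log2 without glutamine and 13.24, 13.76 and 13.12 log2 with it. The groups were far apart: the lowest array with glutamine stood 2.68 log2 above the highest without it. The means were 10.30 ± 0.12 without glutamine and 13.37 ± 0.34 with it (SD, n = 3 each), a difference of -3.07 (SE 0.17, 95% interval -3.48 to -2.66, adjusted p = 0.000187). Of all 30702 genes, 35 fell by more (0.114%). The call held whichever array was left out, with differences from -3.20 to -2.88.

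RefSeq gives 2 start sites for Stat4 on chromosome 1, and the bases from 250 before to 50 after each are shown because Stat4 had the largest difference. They lie on the forward strand of GRCm38.p6, at chr1:51986898-51987197 for the first and chr1:52007990-52008289 for the second. Motifs were searched on both strands as TTCNNNGAA, a palindrome that STAT dimers bind, and GGGCGG, the GC box of the SP factors. The others were ACGTG, the core bound by hypoxia factors, and CACGTG, the E-box of MYC-type factors, within which ACGTG also lies. No other spacing of the STAT letters was searched. Capitals mark a match, and neither window holds one.
Stat4 start 1: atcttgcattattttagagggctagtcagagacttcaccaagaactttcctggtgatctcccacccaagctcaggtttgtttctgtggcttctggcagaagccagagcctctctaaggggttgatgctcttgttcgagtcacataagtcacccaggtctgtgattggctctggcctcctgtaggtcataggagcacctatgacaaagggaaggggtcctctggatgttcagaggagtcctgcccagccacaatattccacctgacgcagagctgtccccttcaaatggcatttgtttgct
Stat4 start 2: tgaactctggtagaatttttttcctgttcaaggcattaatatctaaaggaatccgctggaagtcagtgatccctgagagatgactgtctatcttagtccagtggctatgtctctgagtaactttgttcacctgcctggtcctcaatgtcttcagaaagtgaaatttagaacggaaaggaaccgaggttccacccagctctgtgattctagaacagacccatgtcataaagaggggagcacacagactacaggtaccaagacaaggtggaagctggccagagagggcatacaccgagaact
The GC content of these windows was 50.67% and 46%, and the array row does not tell which start was used.

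Stat6, the factor of IL-4 and TH2 cells, read 12.31, 12.28 and 12.20 log2 without glutamine and 12.94, 12.97 and 12.74 log2 with it. All 3 arrays without glutamine lay below all 3 with it, by 0.43 log2 at the nearest. The means were 12.26 ± 0.058 without glutamine and 12.88 ± 0.12 with it (SD, n = 3 each), a difference of -0.62 (SE 0.085, 95% interval -0.82 to -0.41, adjusted p = 0.00397). Larger falls were found in 2205 genes (7.18%). Leaving out any 1 array left the call in place, with adjusted p from 0.00387 to 0.0202.

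Stat3, the STAT of IL-6 and IL-23 and the one on which TH17 differentiation depends, read 12.44, 12.37 and 12.39 log2 without glutamine and 12.78, 13.19 and 12.84 log2 with it. The 3 arrays without glutamine were close to each other, and those with it were spread more widely because replicate 2 was high. The means were 12.40 ± 0.033 without glutamine and 12.94 ± 0.22 with it (SD, n = 3 each), a difference of -0.54 (SE 0.12, 95% interval -0.81 to -0.26, adjusted p = 0.0197). Larger falls were found in 2722 genes (8.87%). The call was lost without replicate 1, 2 or 3 of the group without glutamine, with adjusted p = 0.0509, 0.0703 and 0.0616.

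The start windows of Stat6 and Stat3 are shown beside that of Jak2, which did not pass the test, because Stat6 and Stat3 were called lower and Jak2 was not. They are the RefSeq windows of GRCm38.p6 at chr10:127642736-127643035 on the forward strand for Stat6, chr11:100939491-100939790 on the reverse strand for Stat3 and chr19:29251553-29251852 on the forward strand for Jak2. Capitals mark the matches, which are ACGTG in Stat6, GGGCGG in Stat3 and GGGCGG or its reverse complement in Jak2.
Stat6: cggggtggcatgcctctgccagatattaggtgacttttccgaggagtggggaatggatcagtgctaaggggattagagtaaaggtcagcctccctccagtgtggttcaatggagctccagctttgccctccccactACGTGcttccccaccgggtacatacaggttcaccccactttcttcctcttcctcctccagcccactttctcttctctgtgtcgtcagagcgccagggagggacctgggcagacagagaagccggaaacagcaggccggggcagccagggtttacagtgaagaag
Stat3: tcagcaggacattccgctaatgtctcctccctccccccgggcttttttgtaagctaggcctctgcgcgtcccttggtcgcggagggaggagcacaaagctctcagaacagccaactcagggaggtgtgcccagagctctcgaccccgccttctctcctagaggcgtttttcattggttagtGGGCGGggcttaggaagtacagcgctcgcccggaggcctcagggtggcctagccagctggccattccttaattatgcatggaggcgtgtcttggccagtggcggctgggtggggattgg
Jak2: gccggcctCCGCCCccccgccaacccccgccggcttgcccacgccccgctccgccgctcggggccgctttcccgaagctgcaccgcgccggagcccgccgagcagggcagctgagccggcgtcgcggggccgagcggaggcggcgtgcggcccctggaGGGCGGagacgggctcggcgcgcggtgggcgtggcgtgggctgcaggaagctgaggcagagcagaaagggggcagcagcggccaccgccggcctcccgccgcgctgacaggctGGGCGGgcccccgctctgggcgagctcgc
Relative to the start site the match in Stat6 begins at base -114 and that in Stat3 at base -69, and Jak2 holds 3 GC boxes with a GC content of 81%. That trait does not separate called from uncalled genes. A window of Stat5b, which was called lower, also holds 3 GC boxes with a GC content of 82.67%. The window of Tyk2, which was not called, has 58%.

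Over the 11 windows of the 8 genes, no window held the STAT letters, 1 held ACGTG, none held CACGTG and 6 held GGGCGG. Of all 32841 windows in the RefSeq table, 8.30% held the STAT letters, 19.6% ACGTG, 7.15% CACGTG and 35.7% GGGCGG. A window without a match says only that these letters are not in it.

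Stat5a, which answers IL-2, read 12.33, 12.31 and 12.49 log2 without glutamine and 12.69, 12.72 and 12.85 log2 with it. The means were 12.37 ± 0.10 without glutamine and 12.75 ± 0.087 with it (SD, n = 3 each), a difference of -0.38 (SE 0.084, 95% interval -0.58 to -0.18, adjusted p = 0.0211). Stat5b, its close paralog, read 13.05, 13.03 and 13.10 log2 without glutamine and 13.26, 13.48 and 13.39 log2 with it. Neither gene's groups overlapped, but the gaps were small, 0.20 log2 for Stat5a and 0.16 log2 for Stat5b. Stat5b averaged 13.06 ± 0.035 without glutamine and 13.38 ± 0.11 with it (SD, n = 3 each), a difference of -0.32 (SE 0.079, 95% interval -0.51 to -0.13, adjusted p = 0.0306). These were the least secure of the 5 STAT calls. Stat5a kept its call in 2 of the 6 fits with 1 array left out, losing it without replicate 1 or 2 of the group without glutamine (adjusted p = 0.0623 and 0.0756) or replicate 2 or 3 with glutamine (0.0570 and 0.0511). Stat5b kept its call in 1 of 6, the fit without with glutamine replicate 1 (adjusted p = 0.0287), and in the other 5 its adjusted p ran up to 0.0970.

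Stat5a and Stat5b lie side by side on chromosome 11 and came from a gene duplication. Their likeness can be read near 1 start site of each, where 100 aligned bases hold 83 identical ones (83%). The stretch is shown for that reason, with the identical bases in capitals. Each line holds 102 bases. Small letters mark a mismatch or a base left unpaired by a gap, so the lines do not match column by column throughout. The stretch lies at chr11:100860381-100860482 on the forward strand for Stat5a and chr11:100822563-100822664 on the reverse strand for Stat5b, in RefSeq's GRCm38.p6.
Stat5a: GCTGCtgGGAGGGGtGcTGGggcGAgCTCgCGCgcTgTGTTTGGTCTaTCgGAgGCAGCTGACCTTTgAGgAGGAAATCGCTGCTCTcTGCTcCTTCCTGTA
Stat5b: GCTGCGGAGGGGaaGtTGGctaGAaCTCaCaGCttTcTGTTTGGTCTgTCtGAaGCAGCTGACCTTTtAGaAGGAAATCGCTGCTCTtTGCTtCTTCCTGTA
Probe sequences of the 2 array rows were not used here, so signal shared between the paralogs was not tested, and the separate values of Stat5a and Stat5b are uncertain to that extent.

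Among the kinases, Jak1, which serves the receptors of IL-6, of interferons and of the common gamma chain family, read 13.55, 13.59 and 13.62 log2 without glutamine and 13.56, 13.58 and 13.52 log2 with it. The groups overlapped, and the difference was 0.038 (SE 0.063, 95% interval -0.11 to 0.19, adjusted p = 0.692). The interval covers a fall of 0.11 and a rise of 0.19 log2 on the deposited scale. The value was -0.010 after quantile normalization and -0.12 after centring, so Jak1 has no direction that holds across scalings.

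Jak2, the kinase held by the IL-23 receptor chain, by IL-12Rβ2 and by the IFNg receptor, read 15.93, 15.73 and 15.72 log2 without glutamine and 15.41, 15.54 and 15.64 log2 with it. All 3 arrays without glutamine lay above all 3 with it, but by 0.083 log2 at the nearest. The difference was 0.26 (SE 0.095, 95% interval 0.037 to 0.49, unadjusted p = 0.0285, adjusted p = 0.0948 by limma over all genes). It did not pass the test, and the sign turned under quantile normalization, with -0.088.

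Tyk2, the partner kinase on IL-12Rβ1 and the type I interferon receptor, read 8.57, 8.38 and 8.64 log2 without glutamine and 8.31, 8.43 and 8.34 log2 with it. The groups overlapped because replicate 2 without glutamine lay below replicate 2 with glutamine. The difference was 0.17 (SE 0.089, 95% interval -0.045 to 0.38, adjusted p = 0.221).

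**Figure D2:**
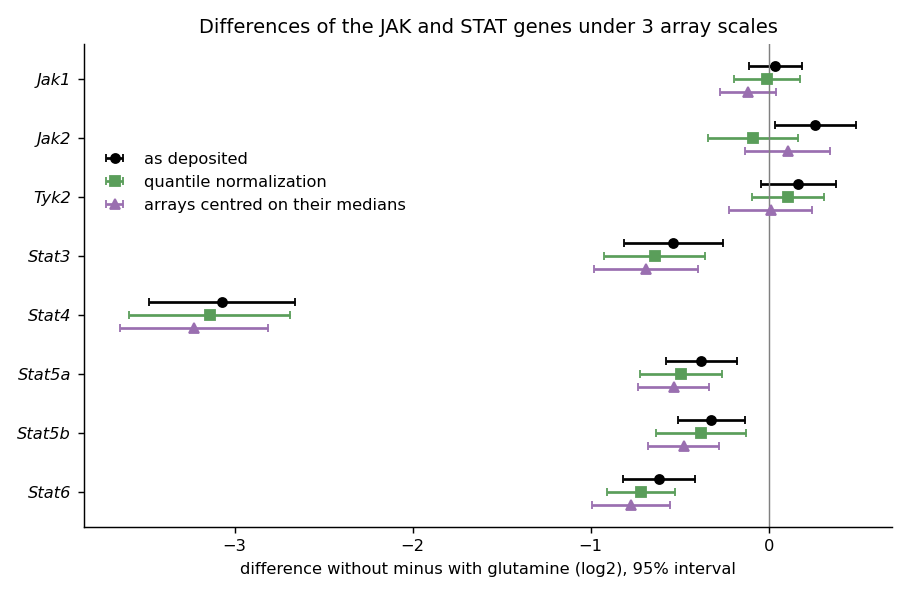
Difference in log2 level, without minus with glutamine, for each of the 8 genes, with its 95% interval, as deposited and under both other scalings. The 5 STAT intervals lie below 0 under all 3 scalings, with points at -3.07 for Stat4 and from -0.62 to -0.32 for the others as deposited. The JAK points lie between -0.12 and 0.26, and those of Jak1 and Jak2 stand on both sides of 0. The interval of Jak2 as deposited, 0.037 to 0.49, lies above 0.

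Within the group with glutamine, 4 of the 5 STAT genes had their highest value on replicate 2, the exception being Stat5a. Leaving that array out moved Stat4 to -2.88, Stat6 to -0.57 and Stat3 to -0.41, and all 3 stayed called. Stat5b moved to -0.27 and lost its call (adjusted p = 0.0943), Stat5a lost its call at -0.40 (adjusted p = 0.0570), and the count of STAT genes called lower was 3 in place of 5.

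Whether the genes differed from one another in their response was asked on each array. An offset common to all rows of an array drops out of the difference between 2 genes, but a stretch of the scale does not. Of the 10 pairs planned, 9 could be tested, the pair with Jak3 being left out. The level of one row against another has no meaning in itself, so only the change of the difference is read. Stat3 minus Stat4 was 2.17, 1.94 and 2.19 without glutamine and -0.46, -0.57 and -0.28 with it, a change of 2.54 log2. Stat4 minus Stat6 lay between -2.04 and -1.84 without glutamine and between 0.30 and 0.79 with it, a change of -2.45 log2. In both pairs the groups were far apart, with Stat4 lower against its partner on all 3 arrays without glutamine. The exact two-sided permutation p was 0.1 for each, the smallest that 3 arrays against 3 allow, and 0.3 after adjustment over the 9 pairs, so neither can pass the threshold.

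The other STAT pairs changed less. Stat3 minus Stat5b averaged -0.66 ± 0.047 without glutamine and -0.44 ± 0.13 with it (SD, n = 3 each), a change of -0.21 with no overlap (exact permutation p = 0.1, adjusted 0.3). Stat5a minus Stat5b averaged -0.68 ± 0.067 without glutamine and -0.63 ± 0.12 with it (SD, n = 3 each), a change of -0.057 that lay within the spread between arrays (exact permutation p = 0.6, adjusted 0.675). Stat3 minus Stat5a changed by -0.16 and Stat3 minus Stat6 by 0.082, and in both the groups overlapped (exact permutation p = 0.5 and 0.8). The 3 JAK pairs changed by -0.23 for Jak1 minus Jak2, -0.13 for Jak1 minus Tyk2 and 0.096 for Jak2 minus Tyk2, all with overlap (exact permutation p = 0.2, 0.3 and 0.4).

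**Figure D3:**
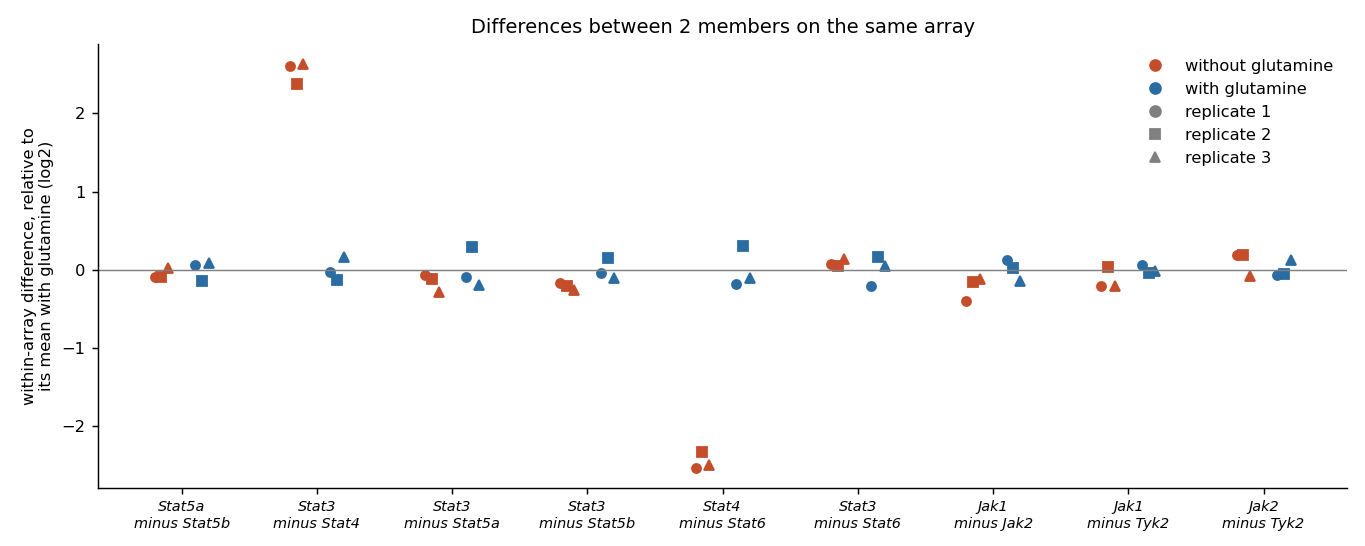
Within-array difference in log2 level between 2 genes, set relative to its mean with glutamine, for the 9 pairs, with arrays without glutamine left of those with it and 1 symbol per replicate. Only the 2 pairs that hold Stat4 show points without glutamine more than 2 log2 from 0; elsewhere the points of both groups lie close together.

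The 3 genes whose values over the 6 arrays lay closest to those of Stat4, each gene centred on its mean, were found by root mean square distance. The search covered 20197 of the 30702 genes, since predicted genes, microRNAs and small nucleolar RNAs were left out by name, with no filter on level. They were Tubb6, a beta-tubulin (distance 0.156 log2, difference -2.99), Mt2, a metallothionein that binds metal ions (0.157, difference -2.76), and Klrc1, an NK cell receptor that activated T cells can carry (0.162, difference -3.23). Tubb6, the closest, read 6.99, 7.01 and 6.61 log2 without glutamine and 9.96, 10.06 and 9.56 log2 with it. With 2 groups of arrays, a gene with a like difference between the groups is close to Stat4 by construction.

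Stat5b, Stat5a and Stat3 are consecutive protein-coding genes on chromosome 11, and all 3 were lower. Of the genes beside that block, Ghdc, next to Stat5b, differed by -0.23 (adjusted p = 0.133), Cavin1, next to Stat3, by 0.039 (adjusted p = 0.723), and Atp6v0a1, a proton pump subunit gene 1 place further, was higher by 0.89 (adjusted p = 0.00147). Stat6 lies between Lrp1, an endocytic receptor gene that fell by 0.62 (adjusted p = 0.00505), and Nab2, a corepressor of EGR factors that fell by 0.77 (adjusted p = 0.00614). Jak1 lies next to Ak4, a mitochondrial adenylate kinase gene, which fell by 3.15 (adjusted p = 0.00116), while Jak1 itself showed no difference past the threshold.

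Of the 80 other pathway genes listed, 75 were measured, and 27 of them were lower and 15 higher without glutamine, with a median of -0.19. Over all genes 13.0% were lower and 9.30% higher, and the counts of each list below stand against those shares. Those shares include dim genes. Among the 15351 genes above the median level, fitted on their own, 6513 were called in either direction, a larger share. A list of bright genes may exceed the shares over all genes for that reason alone. Of the pathway genes called, 21 of the 27 lower and 11 of the 15 higher held whichever array was left out. The 9 lists share 12 genes. They were drawn up with earlier results of these data known, so a list's count describes it and supports nothing on its own.

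**Figure D4:**
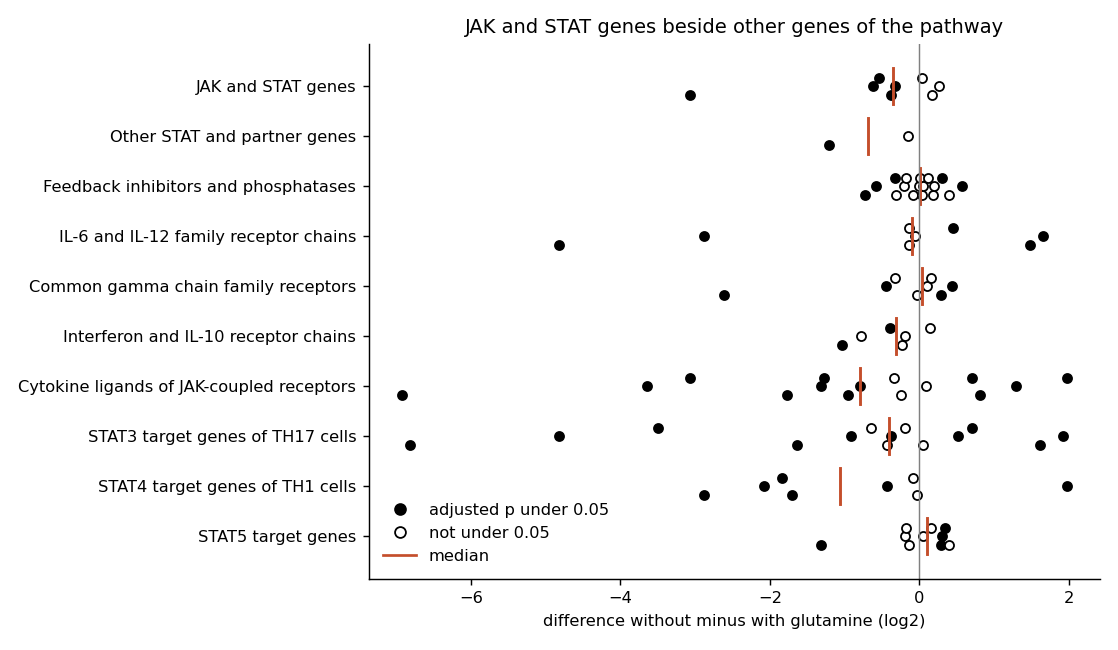
Difference in log2 level, without minus with glutamine, for the 8 JAK and STAT genes and each measured gene of the 9 pathway lists, with called genes filled and the list's median marked. The widest lists are the ligands, from -6.92 to 1.98, and the STAT3 targets, from -6.81 to 1.93, while the feedback inhibitors run from -0.72 to 0.57.

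The receptor chains that feed these STATs split between falls and rises. Of the 8 measured chains of the IL-6 and IL-12 family, 2 were lower and 3 higher. Il23r, the chain specific for IL-23, read 7.98, 7.86 and 8.15 log2 without glutamine and 12.40, 13.22 and 12.85 log2 with it, and fell by 4.83 (adjusted p = 8.84e-05). Il12rb2, the signalling chain of the IL-12 receptor that docks STAT4, averaged 11.04 ± 0.47 without glutamine and 13.92 ± 0.49 with it (SD, n = 3 each), and fell by 2.89 (adjusted p = 0.00166). Their shared partner moved the other way: Il12rb1, common to the IL-12 and IL-23 receptors, read 12.84, 12.52 and 12.58 log2 without glutamine and 11.01, 10.91 and 11.09 log2 with it, a rise of 1.65 (adjusted p = 0.000266). Il6st, which encodes gp130, the shared signalling chain of the IL-6 family, averaged 11.59 ± 0.16 without glutamine and 10.11 ± 0.088 with it (SD, n = 3 each), a rise of 1.48 (adjusted p = 0.000339). The third rise was Il27ra at 0.45, and Il6ra, the IL-6 binding chain, differed by -0.13 (adjusted p = 0.385). Lifr and Osmr stood below 4 log2 in both groups.

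Of the 8 measured receptor genes listed with the common gamma chain family, Il13ra1 of the IL-13 receptor among them, 2 were lower and 2 higher. With an unmoderated statistic 1 was lower and 1 higher. Il2rg, which encodes the common gamma chain itself, was listed but not measured. Il9r and Il13ra1 stood below 5 log2 on every array. Il7r, the IL-7 receptor of resting and memory T cells, averaged 10.00 ± 0.20 without glutamine and 12.61 ± 0.30 with it (SD, n = 3 each), and fell by 2.61 (adjusted p = 0.000319). Il2rb, the shared chain for IL-2 and IL-15 that docks STAT5, fell by 0.44 (adjusted p = 0.0151), though without replicate 2 of the group without glutamine its adjusted p was 0.0594. Il21r rose by 0.44 (adjusted p = 0.0092). Il2ra, the high-affinity IL-2 receptor chain CD25 and itself a STAT5 target, was higher by 0.29 (adjusted p = 0.0323), but no longer passed whichever array was left out (adjusted p from 0.0540 to 0.0924) and under both scalings (differences of 0.031 and 0.14). Its values stood above 17 log2 on every array, in the range where the scale may be stretched.

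Of the 6 interferon and IL-10 receptor chains, 2 were lower and none higher on the deposited scale, against 3 lower with quantile normalization and 5 lower with centring. Ifngr1, the ligand-binding chain for IFNg, averaged 9.24 ± 0.18 without glutamine and 10.27 ± 0.38 with it (SD, n = 3 each), and fell by 1.03 (adjusted p = 0.0130). Ifnar1 fell by 0.40 (adjusted p = 0.0270), a call that held in 1 of the 6 fits with 1 array left out (highest adjusted p = 0.0880). With an unmoderated statistic 0 of the 6 were called.

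Of 15 cytokine genes whose products signal through JAKs, 8 were lower and 4 higher. Il22, made by TH17 cells and acting on epithelia through STAT3, fell by 6.92, Il24 fell by 3.65 and Il3 fell by 3.07 (adjusted p = 0.000170, 0.00378 and 0.00154). The rises were Ifng, the cytokine of TH1 cells, at 1.98, Csf2, which encodes GM-CSF, at 1.30, Il10 at 0.81 and Il21 at 0.70. Il22 has a near-identical copy, Iltifb, so its own value is uncertain. Il2, an activator of STAT5, fell by 0.79 (adjusted p = 0.0211), and that call held in 2 of the 6 fits with 1 array left out. Il21 likewise held in 2 of 6 and was not called after centring (adjusted p = 0.0571). With an unmoderated statistic 7 of the 15 were lower and 0 higher, so none of the 4 rises kept its call there.

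Of 17 feedback inhibitors and phosphatases, 3 were lower and 2 higher as deposited, and 5 lower and 1 higher after either scaling. The deposited-scale counts lie near the shares over all genes, 13.0% lower and 9.30% higher, so they are no result about the list. Ptpn6, which encodes the phosphatase SHP-1, read 12.87, 12.83 and 12.47 log2 without glutamine and 13.46, 13.50 and 13.37 log2 with it, and fell by 0.72 (adjusted p = 0.00757). Ptpn2, whose phosphatase acts on JAK1, JAK3 and STATs, averaged 11.00 ± 0.093 without glutamine and 11.57 ± 0.16 with it (SD, n = 3 each), and fell by 0.58 (adjusted p = 0.00966). Socs5, another member of the SOCS family, rose by 0.57 (adjusted p = 0.00718). Pias4 fell by 0.32 and Cish, a STAT5-induced inhibitor, rose by 0.30, and neither call was firm: Pias4 held in 1 and Cish in 2 of the 6 fits with 1 array left out, and Cish was not called under either scaling. The 2 classical inducible inhibitors showed no difference past the threshold, with -0.18 for Socs1 (adjusted p = 0.447) and 0.047 for Socs3, the target by which STAT3 limits its own signal (adjusted p = 0.897).

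Of the other STAT genes, Stat2, the partner of interferon signalling, read 8.29, 8.52 and 8.67 log2 without glutamine and 9.83, 9.94 and 9.34 log2 with it. The groups did not overlap, and Stat2 fell by 1.21 (adjusted p = 0.00482). The difference lay between that of Stat4 and that of Stat6, and the gaps between these genes were not tested. Irf9, which joins STAT2 on interferon target genes, differed by -0.16 (adjusted p = 0.405).

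Genes listed as targets of the STATs did not move in 1 direction, and STAT binding to them was not measured here. Of 14 measured STAT3 targets of TH17 cells, 6 were lower and 4 higher, with a median of -0.41. The largest falls were Il17a at -6.81, Il23r at -4.83 and Il17f at -3.50, and the rises were Maf at 1.93, Ahr at 1.62, Il21 at 0.70 and Irf4 at 0.51. Maf encodes the factor c-MAF, which drives Il10 and Il21, and read higher on all 3 arrays without glutamine. Irf4, at over 16 log2, was not called after quantile normalization (0.13, adjusted p = 0.455). Hif1a was among the falls, at -0.38, and held in 1 of the 6 fits with 1 array left out. With an unmoderated statistic 5 of the 14 were lower and 2 higher.

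Of 8 STAT4 targets of TH1 cells, 5 were lower and 1 higher, with a median of -1.07. Il12rb2 fell by 2.89, Gzmb, which encodes granzyme B, fell by 2.08, and the IL-18 receptor gene Il18r1 fell by 1.84, beside its partner Il18rap at -1.70. Tbx21, which encodes T-bet, fell by 0.43 and held in 1 of 6 fits with 1 array left out. The 1 rise was Ifng, which averaged 7.53 ± 0.61 without glutamine and 5.55 ± 0.33 with it (SD, n = 3 each, adjusted p = 0.00668). Furin and Hlx did not pass the test. With an unmoderated statistic 3 of the 8 were lower and 0 higher.

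Of 10 STAT5 targets, 1 was lower and 3 higher as deposited, and 2 were lower and none higher after either scaling, so the calls of the list have no direction that holds. Osm, which encodes oncostatin M, averaged 8.44 ± 0.11 without glutamine and 9.75 ± 0.12 with it (SD, n = 3 each), and fell by 1.31 (adjusted p = 0.000371). Lta, which encodes lymphotoxin alpha, was higher by 0.34, beside Cish and Il2ra above; its call held in 4 of the 6 fits with 1 array left out and in neither scaling.

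Markers of the labelled cells were read beside these results. Of the 7 measured T cell identity markers, 0 were lower and 2 higher, Cd3d at 0.88 and Cd5 at 0.51, against 2 lower and 1 higher after quantile normalization. The 2 lower ones there were Cd4 at -0.52 and Cd3e at -0.42 (adjusted p = 0.00637 and 0.0328), and the 1 higher was Cd3d. After centring 0 were lower and 2 higher. Cd3d held its call in 3 of the 6 fits with 1 array left out (highest adjusted p = 0.0633), and Cd5 was not called after quantile normalization (0.13, adjusted p = 0.468). The summed log2 values of the 7 ran from 98.3 to 99.2 without glutamine and from 97.0 to 98.0 with it. Of the 5 measured TH17 markers, Il17a, Il17f, Il23r and Ccr6 were lower and Rora did not pass the test, with sums of 44.0 to 45.4 without glutamine and 60.6 to 63.1 with it. The 3 measured B cell markers stood below 5 log2 on every array, with sums of 12.0 to 12.5 without glutamine and 11.9 to 12.0 with it. Of 7 myeloid and dendritic cell markers, 6 stood below 5 on every array, and 1, Lyz2, a lysozyme gene, fell by 1.66, with sums of 26.6 to 27.1 without glutamine and 28.1 to 28.7 with it. Of 4 CD8 T and NK cell markers, 3 stood below 5, and Cd8b1 fell by 0.71, with sums of 18.3 to 18.7 without glutamine and 18.7 to 19.2 with it. The part of Lyz2-bearing or Cd8b1-bearing cells in the STAT differences was not tested.

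**Figure D5:**
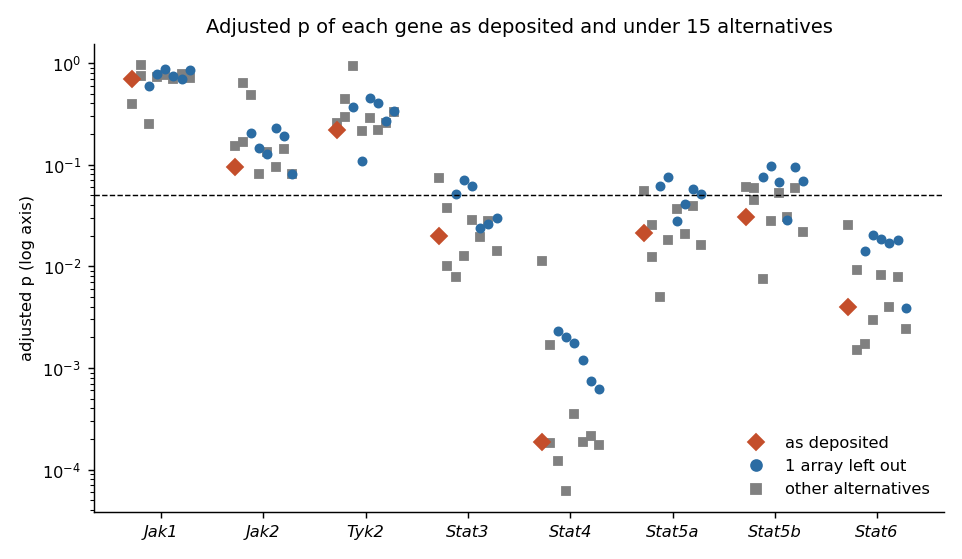
Adjusted p of each of the 8 genes under the 15 alternatives that have a fit of their own, on a log axis, with the threshold of 0.05 drawn as a line. All points of Stat4 and Stat6 lie below the line, those of Stat3, Stat5a and Stat5b lie on both sides of it, and all points of the 3 JAK genes lie above it.

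Over 17 alternatives each, Stat4 kept its call in 17, Stat6 in 16, Stat3 in 11, Stat5a in 10 and Stat5b in 6. None of the 5 changed sign in any. The calls of Stat3, Stat5a and Stat5b changed with the choice of fit, as the plot of adjusted p shows. At an adjusted p under 0.01, which 9.59% of all genes passed, the STAT genes left were Stat4 and Stat6. At an adjusted p under 0.05 with a difference of at least 1 log2, which 2.84% of all genes met as falls, only Stat4 was left of the 8.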

How the data were processed

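RNA of 6 TH17 cultures was hybridised to 6 Affymetrix arrays, 3 without and 3 with glutamine. Values were deposited as log2 levels of array rows, made by the authors with RMA (background correction, normalization and summary of probes) in version 4.0 of the Transcriptome Analysis Console, as the submitters' processing notes record. Options, annotation and genome build are not given in the sources used. The deposited table held 0 columns of other samples. The number of arrays limits the precision.

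Rows were named through the platform annotation, and 1135 symbols were updated through RefSeq's GRCm38.p6 table. Of 65956 rows, 31258 held 1 gene name (654 of them as synonyms), 1492 held several and 33206 have none here. For 441 symbols with several rows the brightest was taken. No filter on dim genes was set. Groups were compared by lmFit and eBayes in limma 3.58.1 (R 4.3.3), two-sided, with Benjamini-Hochberg adjustment over 30702 genes and a threshold of 0.05. The fit was tested on simulated data. Pairs of genes were compared by exact permutation with scipy 1.17.1.

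The members and lists were chosen with earlier results of these data known. The naming rule took all members, the 3 genes closest to Stat4, a preset set of pathway genes, and up to 4 called genes of largest change per list. Il27ra, Csf2, Il10, Il21, Il2, Ahr, Irf4, Hif1a, Il18rap, Tbx21, Lifr, Osmr, Il9r, Il13ra1, Furin, Hlx, the genes beside the members and the markers were named after their values were seen. Start-site windows are RefSeq's, matched by symbol for all 8 genes. Alternatives were 2 scalings (quantile normalization, median centring), genes above the median level, all rows or their mean, eBayes with trend and robust, array weights, no moderation, a replicate block, stricter thresholds, and each array left out. Python 3.11.15 with matplotlib 3.10.9 drew the figures.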

Additional observations from a re-analysis of the deposited data

How the results depend on the processing

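The count of STAT genes, and of JAK and STAT genes together, called lower was 5 as deposited, 2 with an unmoderated statistic, 2 at an adjusted p under 0.01 and 1 when a difference of at least 1 log2 was also asked, and it ran from 2 to 5 when 1 array was left out. The 27 pathway genes called lower became 17 with at least 1 log2, and the 15 called higher became 9 with an unmoderated statistic, 9 at an adjusted p under 0.01 and 6 with at least 1 log2. The difference of Jak1 reversed to -0.010 after quantile normalization and -0.12 after centring, and that of Jak2 to -0.088 after quantile normalization. After quantile normalization Jak1 minus Jak2 reversed to 0.078 and Jak2 minus Tyk2 to -0.20, and Stat3 minus Stat6 reversed with 1 array left out, its values then running from -0.025 to 0.16, the lowest without replicate 1 of the group with glutamine. None of these reversed values passed a test, and the cause was not tested. Calls over all genes numbered 6843 in the main fit, 3832 with an unmoderated statistic, 2943 at an adjusted p under 0.01 and 4060 to 6501 with 1 array left out. Groups share replicate numbers, and the correlations of the deviations of same-numbered arrays were 0.066, -0.23 and 0.28. Those of differently numbered arrays ran from -0.33 to 0.30. With deviations from the mean of only 3 arrays a group, these values cannot decide whether the numbers pair the arrays. With the replicate number as a block, 6292 genes were called and Stat5b lost its call (adjusted p = 0.0590), while the other 4 STAT genes kept theirs. The labels do not give separate mice, 3 arrays a group cannot pass an exact permutation test, and dim genes near the array medians have differences limited by background.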
